A study of Mus musculus with 16 samples.

Results

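The interferon response and the class I antigen presentation pathway were followed here in the dentate gyrus, the hippocampal region in which new neurons form in adult life, through 39 genes that were picked by name for their role, with earlier results of these data known. All 39 were found among the 24421 gene names of the abundance tables, and 38 of them reached the mean of 0.1 TPM that was required for a test. TPM is a share of all transcripts that takes gene length into account. The remaining gene, Mx1, stayed at a mean of 0.0527 TPM and was not tested.

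RNA of the dissected dentate gyrus was sequenced from male C57BL/6 mice of 1 year of age, in 16 libraries that each pooled 2 animals. The 4 groups of 4 libraries were wild-type sedentary mice (p16Ink4a +/+, p16 WT CTL, replicates 1 to 4), knockout sedentary mice (p16Ink4a -/-, p16 KO CTL, replicates 5 to 8), wild-type mice that ran for 12 days (p16 WT RUN, replicates 9 to 12) and knockout mice that ran for 12 days (p16 KO RUN, replicates 13 to 16). Running was voluntary, on a wheel, and p16Ink4a is an inhibitor of the cyclin-dependent kinases that start the cell cycle. The knockout is constitutive and present in every cell, its line was made on another strain before it was bred onto C57BL/6, and p19Arf, which is encoded by the same locus, is left functional. The samples are whole tissue, so that fewer cells of a type and less RNA per cell cannot be told apart. Since each library holds 2 mice, p-values measure the spread between pools and not between single animals.

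Interferons are secreted signals of viral infection. They bind receptor pairs on the cell surface, whose kinases phosphorylate STAT proteins, and these move with interferon regulatory factors (IRFs) to the nucleus, where the STAT2-containing complex binds the interferon-stimulated response element (ISRE) and STAT dimers bind the gamma-activated site (GAS). The genes switched on in this way code for sensors of foreign RNA, for proteins that block translation or viral release, and for the machinery that loads peptides on MHC class I molecules. In the brain the pathway has a low tonic activity, with microglia, endothelium and leukocytes among its main sources, and class I molecules are also made by neurons.

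By median level the receptors and the class I genes were the most abundant roles of the pathway. Most antiviral genes had a mean under 10 TPM. The median of the 39 mean levels was 3.68 TPM, against 16.3 TPM over the 17317 genes tested, and 5 genes had a mean under 1 TPM, 21 a mean from 1 to under 10 TPM and 13 a mean of 10 TPM or more. By role, the median level was 23.1 TPM for the 4 receptors, 14.2 TPM for the 5 signalling and transcription factors, 2.90 TPM for the 4 sensors, 2.09 TPM for the 19 antiviral genes and 21.9 TPM for the 7 class I genes. B2m, the light chain shared by all class I molecules, had the highest mean level of the 39 genes, at 207 TPM. Ifi27 (52.4 TPM), the interferon-inducible gene of a mitochondrial protein, was the one abundant gene of the antiviral group, and the next in that group was Bst2 at 7.60 TPM.

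**Figure D1:**
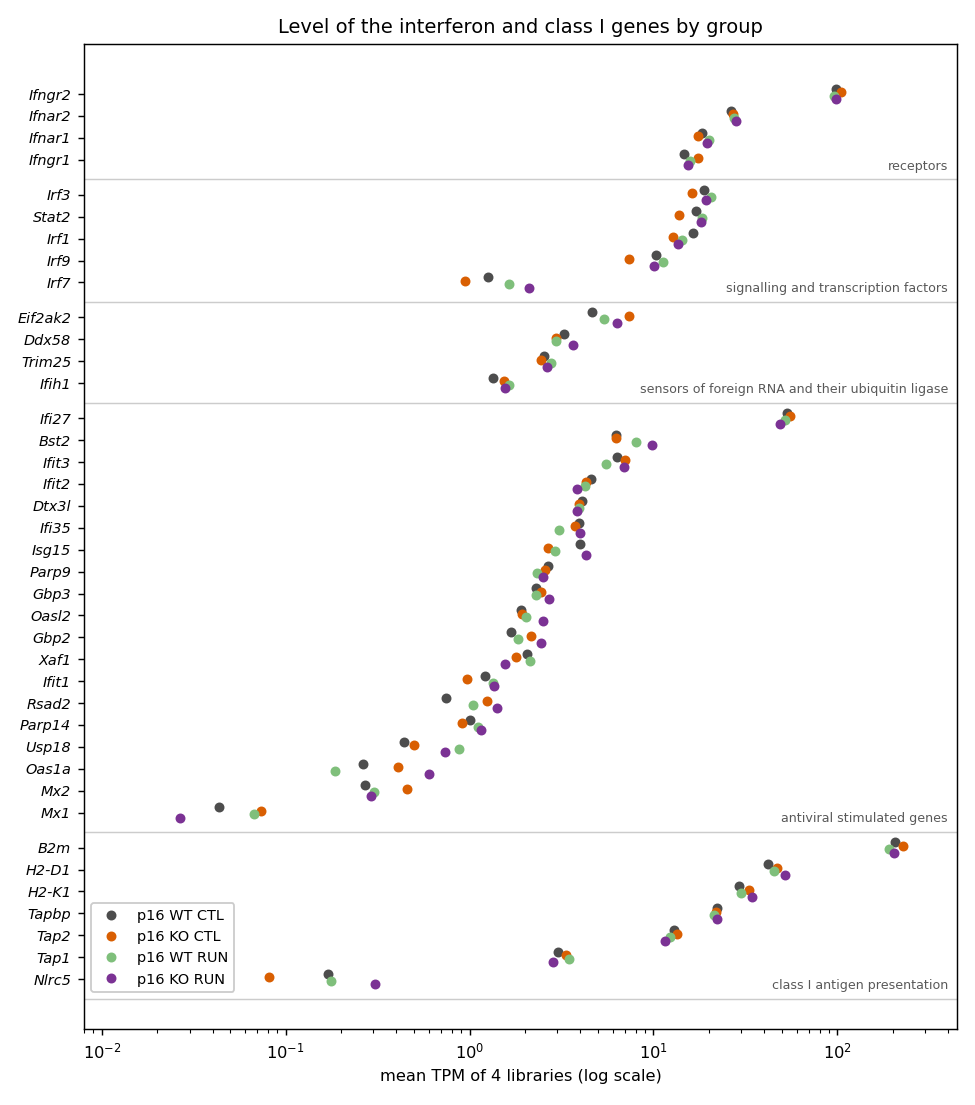
Mean level of each of the 39 genes in TPM on a log axis, ordered by role and then by level, with 1 point for each of the 4 groups (mean of 4 libraries). B2m lies highest at 207 TPM and Mx1 lowest at 0.0527 TPM over all libraries, and for most genes the 4 group means lie close together.

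In 3 sedentary libraries the level of nuclear RNA was low. They were kept in the fits except where stated. The summed level of 8 long non-coding RNAs that stay in the nucleus, such as Malat1 and Meg3, was 977 TPM in p16 WT CTL replicate 2, 541 TPM in p16 KO CTL replicate 6 and 479 TPM in replicate 7, and 1828 to 2533 TPM in the other 13 libraries. In these 3 libraries Ifnar1, Stat2 and Irf3 were lower than in each of the other 13, and B2m was higher. In the 2 knockout libraries of the 3, Irf7, Irf9 and Trim25 were lower than in each of the other 14. Values without the 3 libraries are given below, and their part in the results was not tested beyond this. The transcript of the targeted gene does not check the genotypes, since Cdkn2a lay between 0 and 0.586 TPM in p16 WT CTL and between 0 and 0.344 TPM in p16 KO CTL. The 6 granule neuron markers were present in every library, with sums of 435 to 1151 TPM. The tables hold no read counts; depth is judged from coverage, whose median over genes, set against the mean library, was lowest in p16 WT RUN (0.622 to 0.878) and reached 1.94 in p16 WT CTL.

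**Figure D2:**
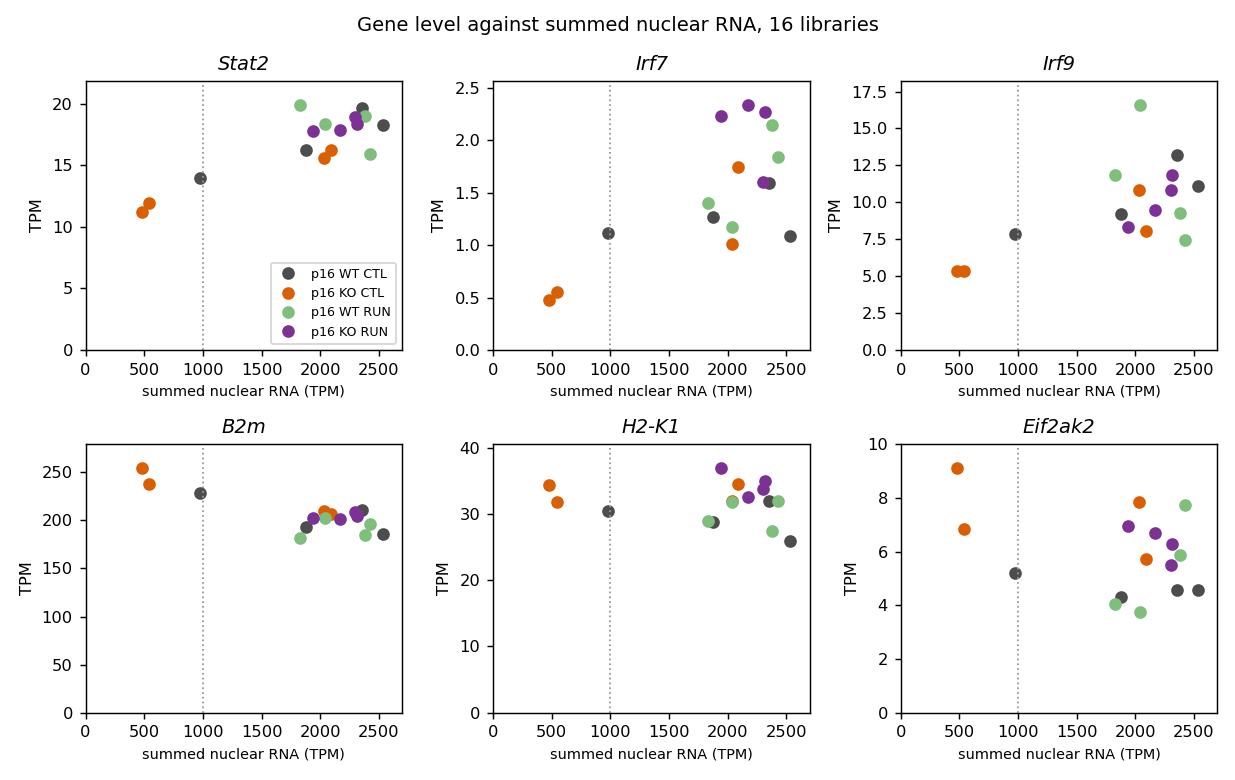
Level in TPM of 6 genes against the summed level of 8 nuclear RNAs in TPM, with 1 point per library coloured by group; the dotted line marks 1000 TPM. The 3 libraries left of the line (479 to 977 TPM) hold the lowest values of Stat2 and the highest of B2m, whereas H2-K1 and Eif2ak2 in them lie within the range of the other libraries or, for Eif2ak2 in p16 KO CTL replicate 7, above it.

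The start regions of the genes that the comparisons turn on show how unequally the 2 interferon motifs are spread. The RefSeq windows of GRCm38.p6, from 250 bases before to 50 bases after the gene start, were at hand for 31 of the 39 genes. The ISRE core (GAAA, any 2 bases, GAAA), searched on both strands, was present in 13 of them (41.9%), against 3.44% of all 32851 windows: Stat2, Ifih1, Ddx58, Eif2ak2, Ifit1, Ifit3, Isg15, Oas1a, Rsad2, Bst2, Gbp2, Gbp3 and B2m. The GAS core TTCNNNGAA, whose reverse complement has the same form, was present in 8 of them (25.8%), against 8.3% of all windows: Ifnar1, Ifnar2, Irf1, Eif2ak2, Ifit2, Oas1a, Bst2 and Ifi35. A match is a description of the letters and not a bound site. Only exact matches of the cores were sought, so a window without one may still hold a related element. Printed below are the windows of Eif2ak2, of 3 antiviral genes and of the 2 class I heavy chains. Each of these genes was called higher in p16 KO CTL or p16 KO RUN in the comparisons that follow. For Bst2 the calls came only from comparisons of p16 KO RUN with sedentary mice. The windows run 5′ to 3′ on the strand of the gene, with the letters of ISRE cores in capitals. They lie at chr17:78882523-78882822 (minus strand) for Eif2ak2, chr12:26456403-26456702 (minus) for Rsad2, chr5:120907476-120907775 (minus) for Oas1a, chr8:71537423-71537722 (minus) for Bst2, chr17:34000284-34000583 (minus) for H2-K1 and chr17:35262844-35263143 (plus) for H2-D1.
Eif2ak2: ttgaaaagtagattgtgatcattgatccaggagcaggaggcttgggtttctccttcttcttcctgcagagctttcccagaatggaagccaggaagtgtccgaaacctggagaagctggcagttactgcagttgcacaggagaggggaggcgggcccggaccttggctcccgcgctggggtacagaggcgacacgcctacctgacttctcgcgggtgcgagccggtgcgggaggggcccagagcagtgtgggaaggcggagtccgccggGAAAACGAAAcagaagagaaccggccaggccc
Rsad2: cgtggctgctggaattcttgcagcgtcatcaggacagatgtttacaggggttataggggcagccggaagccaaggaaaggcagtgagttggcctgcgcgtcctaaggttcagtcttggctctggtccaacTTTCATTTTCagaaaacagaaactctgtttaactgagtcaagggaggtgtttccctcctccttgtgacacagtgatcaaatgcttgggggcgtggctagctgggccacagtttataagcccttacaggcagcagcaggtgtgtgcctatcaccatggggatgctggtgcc
Oas1a: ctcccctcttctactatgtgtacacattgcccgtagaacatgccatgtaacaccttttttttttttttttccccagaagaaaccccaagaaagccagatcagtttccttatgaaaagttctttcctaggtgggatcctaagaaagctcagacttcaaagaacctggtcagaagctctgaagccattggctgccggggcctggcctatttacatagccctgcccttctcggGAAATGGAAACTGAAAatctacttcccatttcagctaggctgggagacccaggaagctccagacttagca
Bst2: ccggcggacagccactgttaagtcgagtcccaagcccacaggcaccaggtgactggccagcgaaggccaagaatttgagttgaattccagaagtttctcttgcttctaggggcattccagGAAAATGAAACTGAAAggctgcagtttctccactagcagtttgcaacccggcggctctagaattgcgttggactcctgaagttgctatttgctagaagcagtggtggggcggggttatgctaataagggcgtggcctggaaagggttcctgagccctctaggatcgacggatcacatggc
H2-K1: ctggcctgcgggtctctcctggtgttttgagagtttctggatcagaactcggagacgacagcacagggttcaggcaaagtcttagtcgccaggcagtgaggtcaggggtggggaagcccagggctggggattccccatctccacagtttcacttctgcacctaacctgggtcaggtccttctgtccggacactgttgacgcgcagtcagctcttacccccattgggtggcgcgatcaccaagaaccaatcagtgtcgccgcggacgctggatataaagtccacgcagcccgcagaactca
H2-D1: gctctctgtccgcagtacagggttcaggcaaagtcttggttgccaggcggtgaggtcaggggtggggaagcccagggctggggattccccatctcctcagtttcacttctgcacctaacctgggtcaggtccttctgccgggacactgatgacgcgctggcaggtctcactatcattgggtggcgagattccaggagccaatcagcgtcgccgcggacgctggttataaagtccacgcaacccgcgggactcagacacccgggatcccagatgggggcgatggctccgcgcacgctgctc
Counted from the gene start, the core of Eif2ak2 begins 19 bases inside the transcript and that of Rsad2, which is on the opposite strand, 120 bases before the start. Oas1a and Bst2 each hold 2 overlapping cores, 20 and 14 bases before the start in Oas1a and 130 and 124 bases before it in Bst2. The windows of H2-K1 and H2-D1 hold neither form of the ISRE core. The choice of windows sets no contrast between the roles. Irf7, Oasl2 and Ifi35, also called higher in p16 KO RUN, have windows without the core, and B2m, a class I gene, has one with it. With all libraries at the settings used throughout, Irf7 and Oasl2 were called only against sedentary mice.

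Each pair of groups was compared over its 8 libraries with limma, on log2 values of scaled TPM, and a change was called at the study's threshold, an unadjusted p under 0.05. In the comparison of knockout with wild-type sedentary mice (Set B) 3 of the 38 tested genes were higher and none lower, or 7.89%, where 6.69% of all genes were called in either direction, 3.15% higher and 3.54% lower. In knockout against wild-type runners (Set E) 5 were higher and none lower, or 13.2%, against 3.87% of all genes in either direction, 2.11% higher and 1.76% lower. In knockout runners against wild-type sedentary mice (Set D), which differ in both genotype and running, 9 were higher and none lower, or 23.7%, against 8.63% of all genes in either direction, 4.97% higher and 3.66% lower. Running in knockout mice (Set A) gave 4 higher and 2 lower genes, or 15.8%, below the 18.5% of all genes called there (10.7% higher and 7.74% lower). Running in wild-type mice (Set C) gave 0 calls among the 38 genes with limma, against 4.81% of all genes (2.69% higher and 2.13% lower); this count was 1 or 2 under 3 of the other settings tried. No gene of the 39 passed an adjusted p of 0.05 in any comparison (over all genes 3 did in Set A, or 0.0173%, 1 in Set E, or 0.00577%, and 0 in the others), and the smallest adjusted p was 0.165, for Tap2 in Set A. In all, 16 of the 38 genes had an unadjusted p under 0.05 in at least 1 of the 6 comparisons (42.1%, against 30.3% of all genes) and 22 in none. Eif2ak2, called in Sets B and D, and Nlrc5, called in Set A, are named by the study from these same samples. The shares that count them are not free of that choice.

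Single libraries moved these counts. The shares of all genes called are not given for fits with libraries left out or with other settings. The changed counts therefore show how firm the calls were, and not whether the pathway genes moved more than other genes. The count in Set B was 10 without p16 WT CTL replicate 2, 6 without p16 KO CTL replicate 8 and 5 without replicate 5 or 6, that in Set A was 10 without p16 KO CTL replicate 8, and that in Set E was 3 without p16 KO RUN replicate 14 or 15 and 8 without replicate 16. In Set C it was 2 without p16 WT RUN replicate 9 or 10 and 1 when replicate 3 of p16 WT CTL was left out. In Set D it stayed between 6 and 11. Without the 3 libraries of low nuclear RNA, Set B kept Eif2ak2 alone. Set A then kept Bst2 and Tap2 and gained Mx2 as a lower gene (-0.89). Set D kept 8 of its 9 genes, losing Gbp2, and gained Irf1 as a lower one.

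The median log2 fold change of the 38 genes was 0.048 in Set B, 0.043 in Set E, 0.097 in Set D, 0.050 in Set A and 0.049 in Set C. The medians over all genes were -0.011, 0.0032, 0.0038, 0.018 and 0.0039. In Set D 71.1% of the 38 genes had a positive sign, against 51.3% of all genes. The comparisons share groups (Sets B, C and D all use p16 WT CTL, and Sets A, D and E all use p16 KO RUN), so that their values are set side by side and are not repeats of each other.

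**Figure D3:**
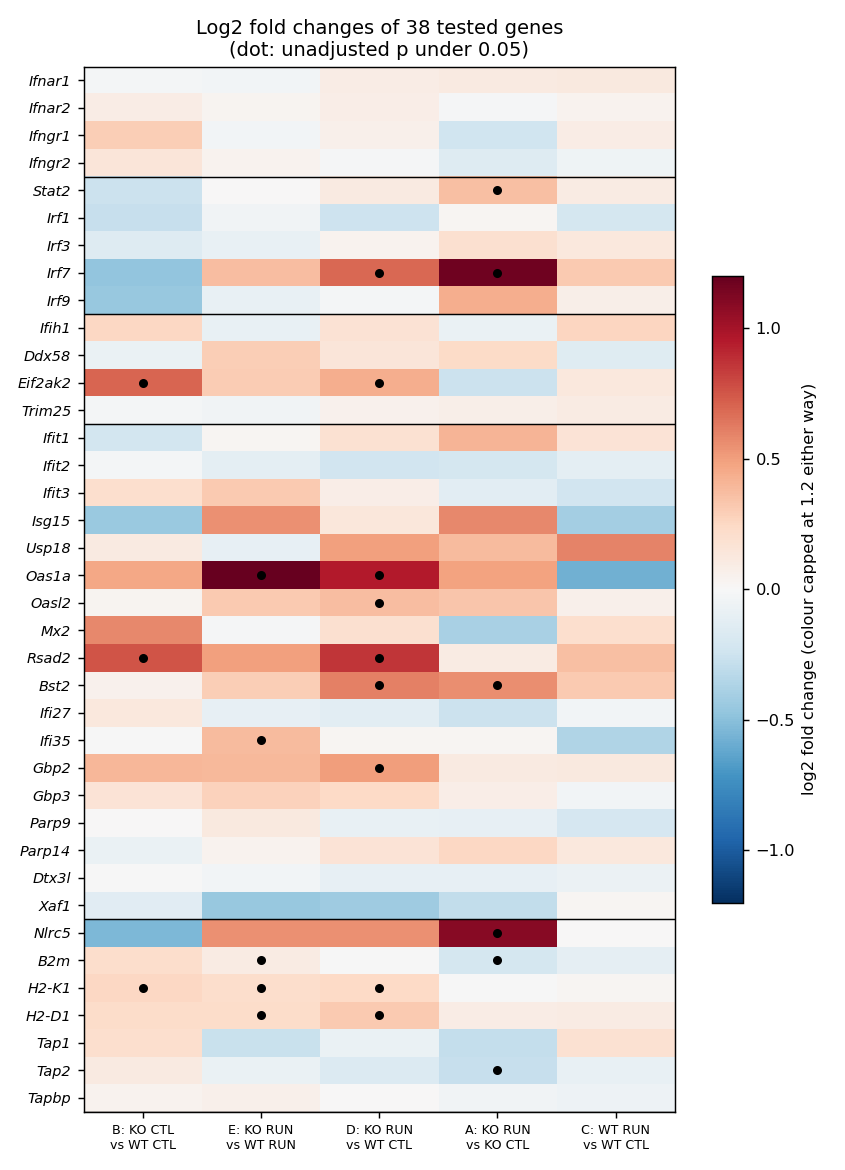
Log2 fold change of the 38 tested genes in Sets B, E, D, A and C, with genes grouped by role between the black lines (receptors, signalling and transcription factors, sensors, antiviral genes, class I genes), red for higher and blue for lower; a dot marks an unadjusted p under 0.05. All dots in the columns of Sets B, E and D lie on positive values, and the column of Set C has none.

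None of the 4 receptor genes passed the threshold in any comparison with all libraries at the settings used throughout. Of all genes, 30.3% passed it in at least 1 of the 6 comparisons. With so few receptors, the count is not read as a result about them as a group. Under other settings Ifnar1 was called in Set C (0.12, with no filter on low levels). Ifngr1 was called in Set B (0.29) when all 16 libraries were fitted together. Ifnar1 and Ifnar2 code for the chains of the type I interferon receptor, and Ifngr1 and Ifngr2 for those of the interferon gamma receptor. Ifngr2 was the most abundant, between 87.8 and 117 TPM over the 16 libraries, Ifnar2 lay between 22.3 and 32.5 TPM, Ifnar1 between 15.3 and 20.8 TPM and Ifngr1 between 13.5 and 19.98 TPM. The ranges of Ifnar1 and Ifngr1 overlap, whereas Ifngr2 exceeded the other 3 in every library. Their log2 fold changes in the 5 pairwise comparisons stayed between -0.24 and 0.29, and the smallest p among them was 0.0522.

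Among the 5 signalling and transcription factors, 2 were called in a pairwise comparison, Stat2 and Irf7. Of all genes, 29.6% were called in at least 1 of the 5 pairwise comparisons. With so few factors, the count is not read as a result about them as a group. Stat2, the STAT protein of the complex that binds the ISRE, was at 16.2, 13.9, 19.7 and 18.2 TPM in p16 WT CTL, at 15.6, 11.9, 11.2 and 16.2 TPM in p16 KO CTL, at 19.8, 19.0, 18.4 and 15.9 TPM in p16 WT RUN and at 18.3, 17.8, 18.9 and 17.9 TPM in p16 KO RUN. The running knockout libraries all lay above the sedentary knockout ones. Stat2 was higher in Set A by 0.36 on the log2 scale (SE 0.11, p = 0.0088, adjusted p = 0.192, limma; exact permutation p = 0.0286), and by 0.18 without the libraries of low nuclear RNA, where the call is lost. Irf9, its DNA-binding partner, ran from 5.34 to 10.8 TPM in p16 KO CTL and from 8.31 to 11.9 TPM in p16 KO RUN, with overlapping values, a log2 fold change of 0.43 in Set A (exact permutation p = 0.114) and of -0.45 in Set B (p = 0.171). It passed the threshold without p16 KO CTL replicate 5 in both sets (0.61 and -0.63). In Set B leaving out replicate 2 of p16 WT CTL (-0.55) had the same effect.

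Irf7, which amplifies the type I interferon response once it has begun, had the lowest level of these factors. It was at 1.26, 1.12, 1.59 and 1.09 TPM in p16 WT CTL, at 1.01, 0.552, 0.480 and 1.75 TPM in p16 KO CTL, at 1.40, 2.14, 1.17 and 1.84 TPM in p16 WT RUN and at 2.27, 2.23, 1.60 and 2.33 TPM in p16 KO RUN. All running knockout libraries exceeded all sedentary wild-type ones, if narrowly for replicates 15 (1.60 TPM) and 3 (1.59 TPM), but not replicate 8 of the sedentary knockout. The log2 fold change was 0.69 in Set D (SE 0.19, p = 0.0060, adjusted p = 0.337, exact permutation p = 0.0286, the smallest that 35 splits can give), 1.16 in Set A (SE 0.35, p = 0.0091) and 0.37 in Set E, where it did not pass except without p16 WT RUN replicate 10 (0.52). Without the libraries of low nuclear RNA the value in Set D was 0.66 and still called, whereas that in Set A was 0.59 and not called. In Set B it was -0.47, and 0.070 without these libraries; it passed the threshold there only without p16 KO CTL replicate 8 (-0.79).

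Irf1, a factor induced by interferon gamma, and Irf3, which is activated by the sensors themselves, passed no test with all libraries. Irf1 lay between 10.6 and 20.03 TPM and Irf3 between 13.8 and 22.6 TPM over the 16 libraries. All 5 factors had a negative sign in Set B, with a median log2 fold change of -0.27, and none of the 5 passed the threshold there, although Stat2 (-0.25) did when all 16 libraries were fitted together. The sign held under every scaling tried, and without the libraries of low nuclear RNA 4 of the 5 were negative, with a median of -0.14.

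Among the sensors, Eif2ak2 was the gene that changed. It codes for the kinase PKR, which binds double-stranded RNA and halts translation by phosphorylating the initiation factor eIF2 alpha. Its level was 4.30, 5.20, 4.55 and 4.58 TPM in p16 WT CTL, 7.83, 6.86, 9.11 and 5.72 TPM in p16 KO CTL, 4.05, 5.89, 3.76 and 7.75 TPM in p16 WT RUN and 6.28, 6.95, 5.51 and 6.69 TPM in p16 KO RUN. Each of the 8 knockout libraries was above each of the 4 sedentary wild-type ones, while replicate 12 of the wild-type runners, at 7.75 TPM, exceeded all 4 knockout runners.

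The log2 fold change of Eif2ak2 was 0.70 in Set B (SE 0.17, p = 0.0027, adjusted p = 0.625, limma; exact permutation p = 0.0286) and 0.43 in Set D (SE 0.13, p = 0.0071, adjusted p = 0.366; not called when all 16 libraries were fitted together). In Set E it was 0.30 (exact permutation p = 0.314), and 0.50 without replicate 12 of p16 WT RUN, where it passed the threshold. Running gave -0.26 in knockout mice (-0.38 and past the threshold without p16 KO CTL replicate 8) and 0.13 in wild-type mice (-0.069 without p16 WT RUN replicate 12), with neither past the threshold, and the difference between these effects, -0.39, did not pass either. Leaving out the libraries of low nuclear RNA gave 0.61 in Set B, still called. The study names Eif2ak2 from these same samples, so its call here is not independent evidence. The study also reports the rise in Set B by real-time PCR, run on the samples that were sequenced.

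The other sensors passed no test with all libraries. Ifih1 and Ddx58, the genes of the RNA helicases MDA5 and RIG-I, lay between 1.08 and 1.85 TPM and between 2.55 and 4.33 TPM. Trim25, the ubiquitin ligase of RIG-I, lay between 1.92 and 3.43 TPM.

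Of the 18 antiviral genes tested, 6 had an unadjusted p under 0.05 in at least 1 pairwise comparison (33.3%, against 29.6% of all genes), and all of these calls were towards higher levels in p16 KO RUN or p16 KO CTL. Rsad2 codes for viperin, an enzyme that makes a chain-terminating nucleotide. It was at 0.626, 0.656, 1.04 and 0.633 TPM in p16 WT CTL, at 1.30, 1.35, 1.19 and 1.1105 TPM in p16 KO CTL, at 0.745, 1.096, 0.607 and 1.72 TPM in p16 WT RUN and at 1.08, 1.58, 1.49 and 1.48 TPM in p16 KO RUN. As for Eif2ak2, all 8 knockout libraries lay above the 4 sedentary wild-type ones, and replicate 12 of p16 WT RUN was the highest of all 16. The log2 fold change was 0.75 in Set B (SE 0.22, p = 0.0080, adjusted p = 0.625; exact permutation p = 0.0286) and 0.86 in Set D (SE 0.23, p = 0.0046, adjusted p = 0.315). In Set E it was 0.49 (exact permutation p = 0.257), and 0.75 and called without replicate 12 of p16 WT RUN. Without the libraries of low nuclear RNA it was 0.65 in Set B and not called, with 5 libraries left in the fit.

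Oas1a codes for an oligoadenylate synthetase, which activates RNase L upon binding double-stranded RNA. It was rare, at 0.333, 0.267, 0.236 and 0.215 TPM in p16 WT CTL, at 0.406, 0.178, 0.448 and 0.604 TPM in p16 KO CTL and at 0.581, 0.622, 0.579 and 0.622 TPM in p16 KO RUN. In p16 WT RUN it was at 0.289, 0.0972 and 0.360 TPM and listed at 0 in replicate 12. All 4 running knockout libraries lay above all 8 wild-type libraries. The log2 fold change was 0.95 in Set D (SE 0.23, p = 0.0027, adjusted p = 0.282) and 1.53 in Set E (SE 0.47, p = 0.0099, adjusted p = 1), each with an exact permutation p of 0.0286. These sizes depend on the 0.1 TPM added before the logarithm, being 0.34 and 0.44 with 1 TPM and 1.18 and 2.56 with 0.01 TPM, all past the threshold. In Set B a call was gained without p16 KO CTL replicate 6 (0.73). At a mean coverage of 1.08 per base few reads lie behind each value, and reads of its near copies in the Oas1 cluster may have been divided among them.

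Bst2 codes for tetherin, which holds budding viruses at the cell surface. It was at 6.41, 7.02, 6.60 and 5.11 TPM in p16 WT CTL, at 4.67, 6.10, 7.56 and 6.83 TPM in p16 KO CTL, at 5.23, 9.11, 9.51 and 8.28 TPM in p16 WT RUN and at 7.70, 13.1, 8.39 and 9.96 TPM in p16 KO RUN. The running knockout libraries lay above every sedentary library of either genotype in TPM as deposited, narrowly so for replicate 13 (7.70 TPM) and p16 KO CTL replicate 7 (7.56 TPM), whose order was reversed in the scaled values that were tested. Those of the running wild type overlapped with both. The log2 fold change was 0.60 in Set D (SE 0.19, p = 0.0107, adjusted p = 0.404; exact permutation p = 0.0286) and 0.56 in Set A (SE 0.22, p = 0.0298, adjusted p = 0.241; exact permutation p = 0.0571), and 0.30 in Set E, where it did not pass. The call in Set A was lost without p16 KO CTL replicate 5 or 6 or p16 KO RUN replicate 14 or 16, with values of 0.40 to 0.56, and also with quantile normalization (0.49) or no filter on low levels, and that in Set D held without any single library.

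Oasl2, a relative of the oligoadenylate synthetases, was at 1.71 to 2.18 TPM in p16 WT CTL and at 2.36 to 2.84 TPM in p16 KO RUN, without overlap, with a log2 fold change of 0.37 in Set D (SE 0.15, p = 0.0331; exact permutation p = 0.0286). This call was lost without p16 WT CTL replicate 3 or 4 or p16 KO RUN replicate 13, 14 or 15 (0.31 to 0.39), with quantile normalization (0.31) and when all 16 libraries were fitted together, while with no variance trend Oasl2 was also called in Set E (0.32). Oasl2 was at 1.28 to 2.29 TPM in p16 KO CTL and at 1.76 to 2.52 TPM in p16 WT RUN, the latter overlapping with p16 KO RUN. Gbp2, a guanylate-binding protein that attacks the vacuoles of intracellular pathogens, was at 1.28 to 1.98 TPM in p16 WT CTL and at 1.84 to 3.00 TPM in p16 KO RUN, with overlap, and had a log2 fold change of 0.50 in Set D (SE 0.20, p = 0.0350; exact permutation p = 0.0857), 0.40 in Set B (p = 0.0580; 0.47 and called without p16 WT CTL replicate 3 or p16 KO CTL replicate 7; also called with all libraries under 5 other settings, at 0.27 to 0.51) and 0.39 in Set E (p = 0.0847; 0.52 and called without p16 KO RUN replicate 16). Its value in Set D was 0.41 and not called without the libraries of low nuclear RNA, and 0.39 to 0.53 and not past the threshold without p16 WT CTL replicate 1 or 2 or p16 KO RUN replicate 13, 14 or 15. Gbp2 was at 1.75 to 2.53 TPM in p16 KO CTL and at 1.45 to 2.10 TPM in p16 WT RUN, both overlapping with p16 KO RUN. Ifi35, an interferon-induced leucine zipper protein, was at 2.72 to 3.55 TPM in p16 WT RUN and at 3.67 to 4.39 TPM in p16 KO RUN, with a log2 fold change of 0.38 in Set E (SE 0.14, p = 0.0219; exact permutation p = 0.0286). This call was lost without p16 WT RUN replicate 11 or 12 or p16 KO RUN replicate 14 or 15 (0.32 to 0.35). Ifi35 was also called in Set C (-0.36) with no variance trend or with all 16 libraries fitted together, and in the interaction with no variance trend (0.39) or TPM as deposited (0.44). Its sedentary libraries of both genotypes, at 3.11 to 4.40 TPM, overlapped with both running groups.

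The remaining antiviral genes passed no pairwise test with all libraries at the settings used throughout. Under other settings Isg15 (0.64, TPM as deposited) and Ifit2 (-0.33 with quantile normalization, -0.21 with no variance trend) were called in Set A, Parp9 in Set C (-0.20, no variance trend) and Xaf1 in Set E (-0.45, all 16 libraries fitted together). Isg15, a ubiquitin-like modifier, spread widely within groups, between 1.89 and 6.49 TPM over the 16 libraries. It was called in Set A without p16 KO CTL replicate 8 or p16 KO RUN replicate 16 (0.70 and 0.80) and in Set E without p16 WT RUN replicate 11 or p16 KO RUN replicate 16 (0.72 and 0.76). Usp18, the protease that removes Isg15 from proteins, lay between 0.181 and 1.64 TPM. The Ifit genes, whose proteins bind the 5′ end of foreign RNA, lay between 0.711 and 1.77 TPM for Ifit1, between 3.69 and 5.29 TPM for Ifit2 and between 4.80 and 9.89 TPM for Ifit3. Ifi27 lay between 39.8 and 68.2 TPM, Mx2 between 0.0893 and 0.867 TPM and Gbp3 between 1.55 and 3.23 TPM.

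Parp9 and Dtx3l, an ADP-ribosyltransferase and its ubiquitin ligase partner, lay between 2.10 and 3.16 TPM and between 3.37 and 4.70 TPM. They are transcribed head to head with an overlap of 558 bases, so that reads of the shared stretch may have been given to either if strand was not used. Parp14 lay between 0.727 and 1.31 TPM. Xaf1, a promoter of apoptosis, lay between 1.08 and 2.45 TPM and had negative values of -0.43 in Set D (exact permutation p = 0.200) and -0.45 in Set E (p = 0.143), against the direction of the genes called in those sets.

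In the class I group both classical heavy chains, H2-K1 and H2-D1, were called higher in knockout than in wild-type runners. H2-K1 was at 28.8, 30.5, 31.9 and 25.8 TPM in p16 WT CTL, at 32.0, 31.9, 34.4 and 34.5 TPM in p16 KO CTL, at 28.9, 27.4, 31.8 and 31.9 TPM in p16 WT RUN and at 34.99, 36.9, 33.7 and 32.6 TPM in p16 KO RUN. Its knockout libraries were above the wild-type ones in runners, and nearly so in sedentary mice, where replicate 3 of p16 WT CTL (31.94 TPM) exceeded replicate 6 of p16 KO CTL (31.86 TPM). H2-K1 had a log2 fold change of 0.24 in Set B (SE 0.093, p = 0.0269, adjusted p = 0.625; exact permutation p = 0.0571), 0.21 in Set E (SE 0.069, p = 0.0135, adjusted p = 1; exact permutation p = 0.0286) and 0.24 in Set D (SE 0.087, p = 0.0238, adjusted p = 0.485). The call in Set E held without any single library. That in Set B was lost without p16 WT CTL replicate 1 or 4 or p16 KO CTL replicate 7 or 8 (0.17 to 0.24), and that in Set D without p16 WT CTL replicate 1 or 4 or p16 KO RUN replicate 14 (0.17 to 0.23).

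H2-D1 was at 40.7, 42.7, 45.0 and 39.01 TPM in p16 WT CTL, at 47.5, 41.9, 53.6 and 44.7 TPM in p16 KO CTL, at 42.4, 46.2, 45.8 and 46.1 TPM in p16 WT RUN and at 54.9, 56.3, 48.3 and 49.5 TPM in p16 KO RUN. The running knockout libraries lay above all 8 wild-type libraries. H2-D1 had a log2 fold change of 0.31 in Set D (SE 0.078, p = 0.0031, adjusted p = 0.290; exact permutation p = 0.0286), 0.22 in Set E (SE 0.068, p = 0.0111, adjusted p = 1) and 0.22 in Set B (p = 0.0502), which was called with 1 TPM added before the logarithm and when all 16 libraries were fitted together. The calls in Sets D and E held without any single library, and in Set B a call was gained without p16 WT CTL replicate 2 (0.25) or p16 KO CTL replicate 6 (0.26).

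The estimates for both heavy chains in sedentary mice (Set B) and in runners (Set E) were alike. The difference between the effects of running in the 2 genotypes was -0.033 for H2-K1 (95% interval -0.28 to 0.22) and -0.0038 for H2-D1 (95% interval -0.26 to 0.26), intervals that allow differences as large as the estimates in Sets B and E. The sign of both turned under other settings, to 0.020 for H2-K1 and 0.049 for H2-D1 with TPM as deposited. Class I genes are close copies of each other, and reads may have been divided among them. The sum of H2-K1 and H2-D1, which an exchange of reads between the 2 leaves as it is, ran from 64.9 to 77.0 TPM in p16 WT CTL, from 73.7 to 88.1 TPM in p16 KO CTL, from 71.3 to 78.0 TPM in p16 WT RUN and from 82.0 to 93.2 TPM in p16 KO RUN. The sums of runners did not overlap between genotypes, and those of sedentary mice did. Without the libraries of low nuclear RNA, H2-K1 kept its value of 0.24 in Set B but not its call, and H2-D1 had 0.35 in Set D, still called.

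B2m was at 194, 229, 211 and 186 TPM in p16 WT CTL, at 210, 238, 254 and 207 TPM in p16 KO CTL, at 182, 185, 203 and 196 TPM in p16 WT RUN and at 205, 202, 209 and 202 TPM in p16 KO RUN. The 3 highest values were those of the libraries of low nuclear RNA. B2m had a log2 fold change of 0.10 in Set E (SE 0.044, p = 0.0434, adjusted p = 1; exact permutation p = 0.0286) and -0.21 in Set A (SE 0.092, p = 0.0450, adjusted p = 0.264; exact permutation p = 0.0571), which without these libraries was -0.046 and not called. The call in Set E was lost without p16 WT RUN replicate 9 or 10 or p16 KO RUN replicate 13, 14 or 15 (0.072 to 0.11) and, with all libraries kept, under 4 of 10 other settings: TPM as deposited (0.094), quantile normalization (0.084), all 16 libraries fitted together and no variance trend. That in Set A was lost without p16 KO CTL replicate 6 or 7 or any one of the p16 KO RUN libraries (-0.22 to -0.14), and also with TPM as deposited (-0.15), no filter or no variance trend. In Set B B2m was called when all 16 libraries were fitted together (0.21).

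The peptide transporter was called for 1 of its chains in Set A. Tap2, one of its chains, was at 14.4, 12.9, 12.3 and 13.9 TPM in p16 KO CTL and at 11.1, 11.4, 11.4 and 12.2 TPM in p16 KO RUN, without overlap. It was at 11.2 to 14.5 TPM in p16 WT CTL and at 10.8 to 13.3 TPM in p16 WT RUN. Tap2 fell by 0.28 on the log2 scale in Set A (SE 0.073, p = 0.0042, adjusted p = 0.165; exact permutation p = 0.0286), and the value was -0.32 and still called without the libraries of low nuclear RNA. Tap1, the other chain, lay between 2.52 and 3.82 TPM over the 16 libraries and passed no pairwise test at the settings used throughout, but was called lower in Set A under 4 other settings (-0.43 to -0.28) and in Set E under 2 (-0.26). Tapbp (tapasin), which bridges the transporter and the class I molecule, lay between 19.8 and 25.3 TPM and passed no test with all libraries.

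Nlrc5, the transactivator of class I genes, was near the lower limit of measurement. It was at 0.205, 0.200, 0.0990 and 0.173 TPM in p16 WT CTL, at 0.124, 0.0811, 0.0583 and 0.0620 TPM in p16 KO CTL, at 0.123, 0.122, 0.306 and 0.154 TPM in p16 WT RUN and at 0.442, 0.188, 0.411 and 0.191 TPM in p16 KO RUN. Its coverage was 0.172 to 1.2004 per base, so that each value rests on few reads. The running knockout libraries lay above the sedentary knockout ones, and replicates 13 and 15 were well above replicates 14 and 16. Nlrc5 had a log2 fold change of 1.09 in Set A (SE 0.35, p = 0.0128, adjusted p = 0.208; exact permutation p = 0.0286), 0.26 with 1 TPM and 1.69 with 0.01 TPM added before the logarithm, 0.79 and not called with quantile normalization, and 1.03 and not called without the libraries of low nuclear RNA. In Set B it was -0.54, called with no filter on low levels or no variance trend but not otherwise. In Set E it was 0.55 and did not pass. The study names Nlrc5 from these samples too. With DESeq2 on read counts it lists Nlrc5 as higher in Sets A, D and E, with an interaction. Here Nlrc5 was not called in Sets D and E.

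**Figure D4:**
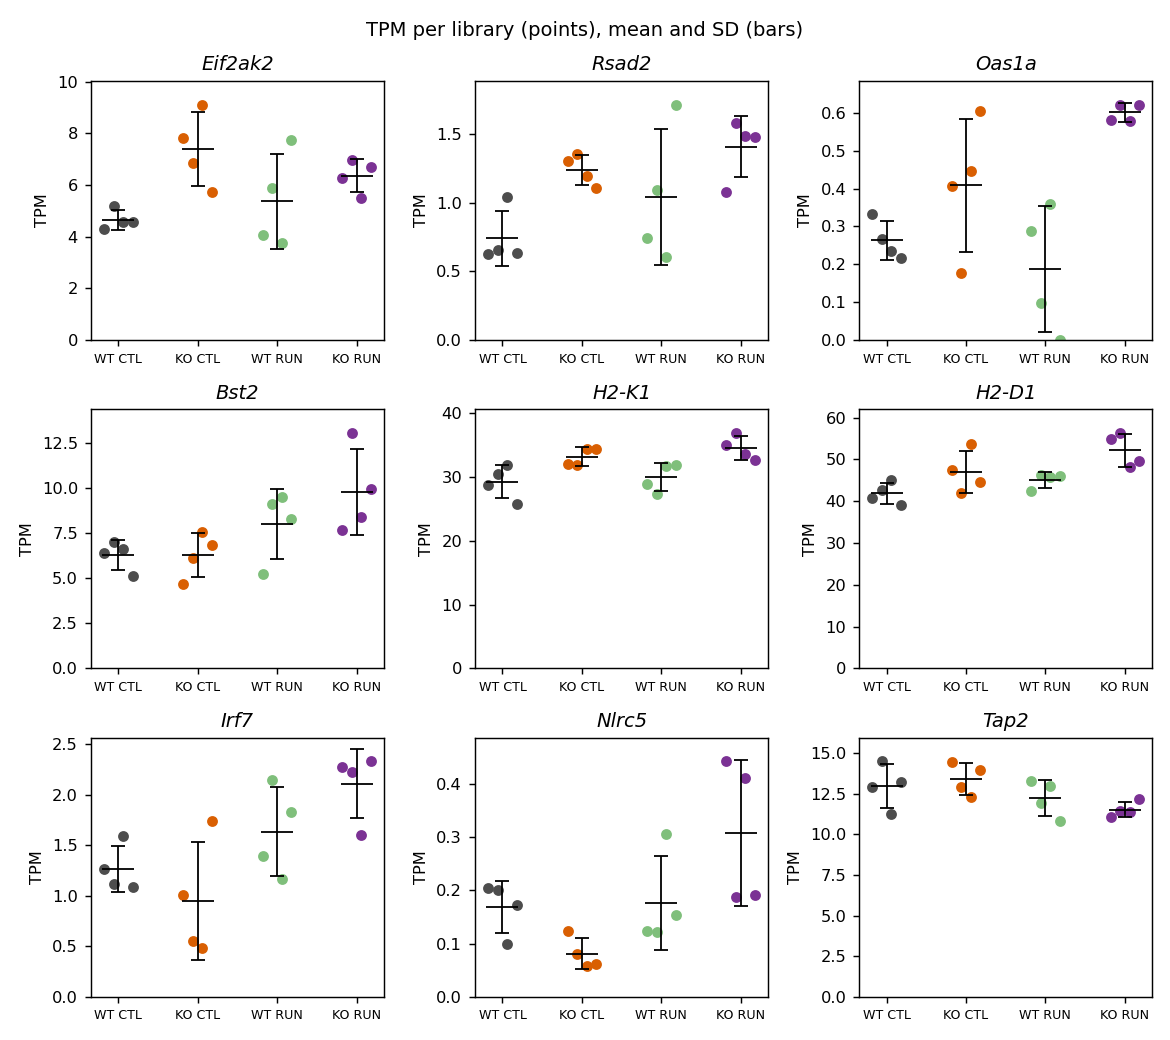
Level in TPM of 9 genes in each library (points) by group, with the mean (wide bar) and SD (error bars) of 4 libraries; each axis starts at 0. Knockout libraries lie above the sedentary wild-type ones for Eif2ak2 and Rsad2, the 4 running knockout libraries of Oas1a lie at 0.579 to 0.622 TPM, and the H2-K1 and H2-D1 shifts are small beside their levels.

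Sets B and E compare the genotypes in sedentary and in running mice and share no library, so that they are 2 separate looks at the same pair of lines. Any other difference between the knockout and wild-type lines would enter both and cannot be told apart from the loss of p16Ink4a. Of the 38 genes 23 (60.5%) had the same sign in both, against 52.7% of all genes, and 15 (39.5%) were positive in both, against 25.9%. H2-K1 was the one gene with an unadjusted p under 0.05 in both. H2-D1, Eif2ak2, Rsad2, Gbp2 and Oas1a were positive in both with a p under 0.05 in at most 1, whereas Irf7, Isg15 and Nlrc5 were negative in sedentary and positive in running mice, although Irf7 in Set B turned to 0.070 without the libraries of low nuclear RNA.

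**Figure D5:**
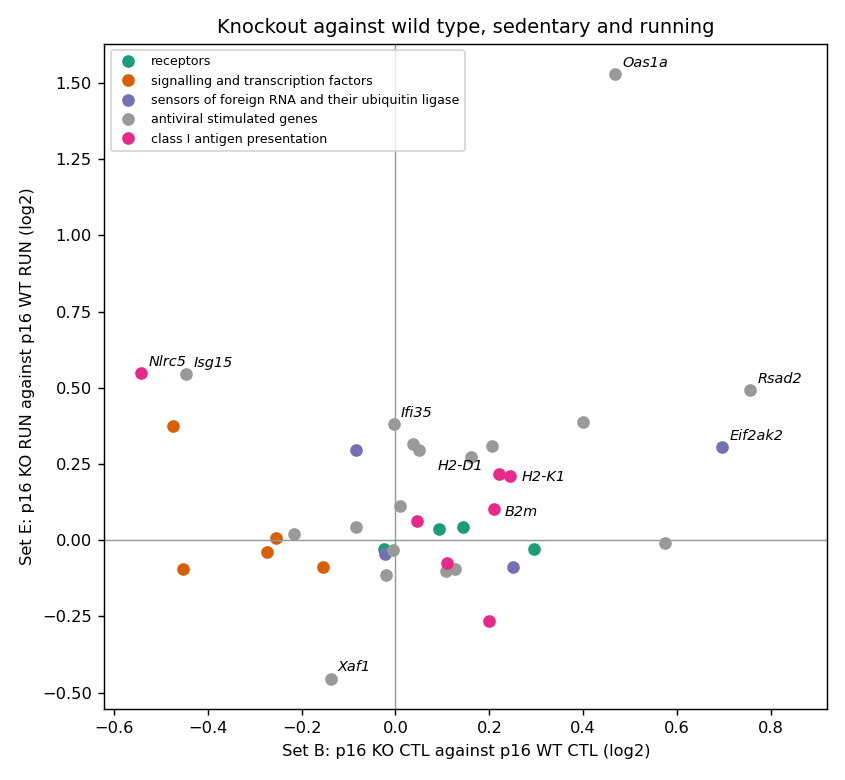
Log2 fold change of knockout against wild type in sedentary mice (Set B, horizontal) and in runners (Set E, vertical) for the 38 tested genes, coloured by role, 1 point per gene, with the names of those called in either set and of Isg15, Nlrc5 and Xaf1. The class I heavy chains lie close together, at 0.24 and 0.22 in Set B and 0.21 and 0.22 in Set E, and the 5 signalling factors lie left of 0 on the horizontal axis (4 of 5 without the libraries of low nuclear RNA).

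The interaction of genotype and running, fitted over all 16 libraries, was called for 3 of the 38 genes (7.89%), against 5.48% of all genes (2.95% higher and 2.54% lower). The 3 include Nlrc5, which the study names from these same samples, so the share is not free of that choice. The effect of running on Isg15 was higher in knockout than in wild-type mice by 0.99 on the log2 scale (SE 0.42, adjusted p = 0.797), with 0.58 in Set A (not called). For Nlrc5 the difference was 1.09 (SE 0.46, adjusted p = 0.797). For Tap1 it was -0.46 (SE 0.19, adjusted p = 0.797), with 3.13 to 3.81 TPM in p16 KO CTL, 2.52 to 3.15 TPM in p16 KO RUN, 2.64 to 3.40 TPM in p16 WT CTL and 3.08 to 3.82 TPM in p16 WT RUN. That of Nlrc5 was lost with quantile normalization (0.80). None of the 3 kept its call without the libraries of low nuclear RNA (0.84, 0.95 and -0.45), where Tap2 was the one gene called. Single libraries decided these calls too: that of Isg15 was lost without p16 WT CTL replicate 3, p16 KO CTL replicate 6, p16 WT RUN replicate 9 or 12 or p16 KO RUN replicate 13 or 14 (0.74 to 0.95), and that of Nlrc5 without p16 WT CTL replicate 1 or 2, p16 KO CTL replicate 7 or 8, p16 WT RUN replicate 9 or 10 or p16 KO RUN replicate 13 or 15 (0.94 to 1.04). That of Tap1 was lost without p16 WT CTL replicate 3, p16 KO CTL replicate 8, p16 WT RUN replicate 10 or p16 KO RUN replicate 15 (-0.41 to -0.39). The count of called genes was 1 without p16 KO RUN replicate 13 or 15, and the shares of all genes called in those fits are not given.

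Other genes of the pathway were read from a wider list of 95 tested genes, chosen by name. The share of them called was 5.26% in Set B, 9.47% in Set E, 11.6% in Set D, 15.8% in Set A, 7.37% in Set C and 6.32% in the interaction, against 6.69%, 3.87%, 8.63%, 18.5%, 4.81% and 5.48% of all genes, so that the shares in Sets A and B lay below those of all genes. In Set B 3 of them were higher and 2 lower at an unadjusted p under 0.05, in Set E 9 higher and none lower, 8 against 3 in Set D and 12 against 3 in Set A, while Set C gave 2 higher and 5 lower genes and the interaction 5 higher and 1 lower. Psme1 and Psme2, the subunits of the interferon-inducible proteasome activator, fell with running in knockout mice, by 0.35 each in Set A (adjusted p = 0.103 and 0.114). Psme1 was at 84.6 to 94.9 TPM in p16 KO CTL and at 67.3 to 77.2 TPM in p16 KO RUN, and its levels in wild-type mice were 84.1 to 96.0 TPM without and 64.8 to 77.3 TPM with running. It fell by 0.29 in Set C (adjusted p = 0.937) and was lower by 0.28 in Set D (adjusted p = 0.341). Psme1 was lower in every running than in every sedentary library.

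Among the genes of the wider list with a mean of at least 1 TPM that were called higher in Set A, 3 had the smallest p. They were Tyk2, the kinase bound to Ifnar1 (0.57, adjusted p = 0.202), Tbk1, the kinase of Irf3 (0.21, adjusted p = 0.208), and Rfx5, a subunit of the RFX complex that binds MHC promoters (0.36, adjusted p = 0.17). All 3 lost the call without the libraries of low nuclear RNA, at 0.30, 0.13 and 0.25. Rfxank, another RFX subunit, was at 10.4 to 12.7 TPM in p16 WT CTL and at 4.23 to 8.20 TPM in p16 KO CTL, with -0.76 in Set B (adjusted p = 0.625). Gbp6, a guanylate-binding protein gene with a mean under 1 TPM and named after its values were seen, was also lower there (-0.87, adjusted p = 0.625). Called higher were Tmem173, the gene of the adaptor STING (0.37, adjusted p = 0.625), Rtp4 (0.46, adjusted p = 0.625) and Irf8, a factor of myeloid cells (0.38, adjusted p = 0.625). Each of these 3 lost its call without any one of 4 to 6 of the 8 libraries (0.30 to 0.34 for Tmem173, without p16 WT CTL replicate 1 or 4 or p16 KO CTL replicate 6 or 7; 0.39 to 0.48 for Rtp4, without p16 WT CTL replicate 2, 3 or 4 or p16 KO CTL replicate 5, 7 or 8; 0.28 to 0.37 for Irf8, without p16 WT CTL replicate 1, 3 or 4 or p16 KO CTL replicate 6 or 7). With TPM as deposited Rtp4 (0.40) and Irf8 (0.32) were not called, nor was Irf8 with quantile normalization (0.44) or no filter on low levels. Without the libraries of low nuclear RNA Irf8 had 0.20 and Tmem173 0.33, neither of them called, and the 2 knockout libraries among these held the highest microglial marker sums of all, 686 and 644 TPM. Their part in the result was not tested.

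In Set D the stimulated genes Tor3a, Parp10 and Herc6 were higher, by 0.45 (adjusted p = 0.373), 0.65 (adjusted p = 0.49) and 0.38 (adjusted p = 0.494). The call of Parp10 was lost without the libraries of low nuclear RNA (0.57) and without p16 WT CTL replicate 1 or 2 or p16 KO RUN replicate 14 or 16 (0.50 to 0.64), and that of Herc6 without p16 WT CTL replicate 3 or p16 KO RUN replicate 14 or 15 (0.32 to 0.35) or with quantile normalization (0.32). That of Tor3a held without any single library and was lost when all 16 libraries were fitted together (0.45). In Set E Psmb8, a catalytic subunit of the immunoproteasome, was at 5.68 to 6.15 TPM in p16 WT RUN and at 6.65 to 8.61 TPM in p16 KO RUN, with 0.32 (adjusted p = 1), a call that also held without any single library and was lost with all 16 libraries fitted together. Canx (calnexin), a chaperone of new class I chains, had 0.49 (adjusted p = 1), where replicate 10 of p16 WT RUN (284 TPM) lay among the knockout runners (265 to 301 TPM) and the other 3 at 178 to 183 TPM. Ube2l6, the conjugating enzyme of Isg15, had 0.25 in Set E (adjusted p = 1; 0.22 and 0.23 without p16 WT RUN replicate 11 or p16 KO RUN replicate 13, not called) and -0.33 in Set C (adjusted p = 0.985; -0.29 to -0.24 without p16 WT CTL replicate 1 or p16 WT RUN replicate 10 or 11, not called).

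The 8 class II genes, which present extracellular antigens in microglia and leukocytes, were all positive in Set E, with a median log2 fold change of 0.40, where 51.2% of all genes were positive and 2.11% were called higher. The sign of 1 of them turned without p16 WT RUN replicate 9 or p16 KO RUN replicate 13 or 16. Called higher were 3 of them, Cd74, H2-DMa and H2-Eb1, the last named after its values were seen. In Set C, where 2.13% of all genes were called lower, 7 of the 8 were negative (6 without p16 WT CTL replicate 1 or 2 and 5 without p16 WT RUN replicate 11), and Cd74, H2-DMa and H2-DMb1 were called lower. Both comparisons use p16 WT RUN. Cd74, the invariant chain, was at 3.21, 1.88, 1.84 and 1.76 TPM in p16 WT CTL, at 2.71, 2.93, 3.39 and 1.35 TPM in p16 KO CTL, at 2.06, 0.549, 0.282 and 1.25 TPM in p16 WT RUN and at 5.57, 2.73, 2.02 and 2.53 TPM in p16 KO RUN. The lowest values were those of running wild-type mice, of which replicate 9 lay within the range of the other groups. Cd74 had a log2 fold change of 1.74 in Set E (SE 0.53, adjusted p = 1) and -1.27 in Set C (SE 0.50, adjusted p = 0.985), and the latter lost its call without p16 WT CTL replicate 1 or 2 or p16 WT RUN replicate 10 or 11 (-1.30 to -0.84), without the libraries of low nuclear RNA (-1.30) and with no filter on low levels.

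H2-DMa, which loads peptides on class II molecules, was at 24.02 to 25.2 TPM in p16 WT CTL, at 17.97 to 20.3 TPM in p16 WT RUN and at 20.6 to 23.6 TPM in p16 KO RUN, without overlap between the 3 groups. H2-DMa had a log2 fold change of -0.36 in Set C (adjusted p = 0.937), -0.20 in Set D (adjusted p = 0.438) and 0.16 in Set E (adjusted p = 1), and the last lost its call without p16 WT RUN replicate 10, 11 or 12 or p16 KO RUN replicate 14 or 16 (0.12 to 0.16) or with TPM as deposited (0.15). H2-DMb1, which pairs with it, had -0.43 in Set C (adjusted p = 0.985), not called without p16 WT CTL replicate 1 or 3 or p16 WT RUN replicate 9 or 10 (-0.43 to -0.34) or when all 16 libraries were fitted together. In the interaction, Mb21d1, the gene of the DNA sensor cGAS, had 0.64 (adjusted p = 0.797), H2-DMa 0.21 (adjusted p = 0.797), Rtp4 -0.65 (adjusted p = 0.797), Cd74 1.47 (adjusted p = 0.797) and H2-Q7, a class I gene with near copies, 1.16 (adjusted p = 0.797). All but Mb21d1 lost the call without any one of 5 (H2-DMa), 8 (Cd74), 10 (Rtp4) or 12 (H2-Q7) of the 16 libraries, with values of 0.17 to 0.21, 1.04 to 1.499, -0.66 to -0.53 and 0.93 to 1.22. With quantile normalization Mb21d1 (0.46), H2-DMa (0.19), Cd74 (1.37) and H2-Q7 (0.94) were not called either, nor was Rtp4 with TPM as deposited (-0.60), H2-Q7 with no filter on low levels or Cd74 under 3 more settings (0.85 to 1.47).

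Marker levels of the cell types that could supply these transcripts are given here beside the results. Their part in the results was not tested. In Set A Mbp was lower in p16 KO RUN (665 to 906 TPM) than in p16 KO CTL (917 to 1540 TPM). Col1a1 (1.583 to 3.45 against 0.813 to 1.578 TPM) and the nuclear RNA Malat1 (606 to 634 against 67.1 to 457 TPM) were higher there. Apart from these and Cd163, the markers listed overlapped between these groups. The sum of the 6 endothelial markers was 92.1 to 128 TPM in p16 WT CTL, 64.1 to 128 TPM in p16 KO CTL, 116 to 137 TPM in p16 WT RUN and 110 to 163 TPM in p16 KO RUN. In the same order, that of the 8 microglial markers was 482 to 573, 483 to 686, 469 to 540 and 447 to 535 TPM. That of the 5 oligodendrocyte markers was 925 to 1939, 1384.5 to 2304, 1168 to 1656 and 1077 to 1404 TPM. All of these markers were above 0 in every library. The 9 markers of perivascular macrophages and blood leukocytes summed to 5.82 to 7.81 TPM in p16 WT CTL, 3.58 to 6.29 TPM in p16 KO CTL, 5.60 to 14.4 TPM in p16 WT RUN and 6.78 to 11.6 TPM in p16 KO RUN, with the T cell marker Cd3e and the neutrophil markers S100a8 and S100a9 among those at 0 in some libraries. Its 3 macrophage markers did not move together. Mrc1 was at 0.295 to 0.826 TPM in p16 WT CTL, 0.460 to 0.962 TPM in p16 KO CTL, 0.329 to 0.522 TPM in p16 WT RUN and 0.701 to 1.31 TPM in p16 KO RUN, without overlap between the running groups. Cd163 was at 0.607 to 0.990 TPM, 0.383 to 0.668 TPM, 0.826 to 1.22 TPM and 1.06 to 1.34 TPM in the same order, so that p16 KO RUN lay above both sedentary groups and overlapped with p16 WT RUN. Lyve1 overlapped between all 4 groups, with means of 0.298, 0.167, 0.277 and 0.252 TPM. Cd3e, with overlap, had a lower mean in p16 KO RUN (0.0590 TPM, 0 to 0.162 TPM) than in p16 WT RUN (0.200 TPM, 0.114 to 0.305 TPM). In the 3 libraries of low nuclear RNA the endothelial sum was 64.1 to 92.1 TPM, below the 110 to 163 TPM of the other 13, and the microglial sum was 573 to 686 TPM, above the 447 to 540 TPM of the others.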

How the data were processed

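Per the labels and the study's methods, reads were made with bcl2fastq 2.20, cleaned with Cutadapt 1.11 and ERNE, aligned to mm10 with STAR and assembled with StringTie. The authors deposited 1 abundance table per library; per the file headers it gives coverage, FPKM and TPM for each gene. The deposited TPM values were used, the deposited FPKM values served as an alternative, and the deposited coverage (mean depth per base) described precision. Whether StringTie used strand is not given in the sources used here, and no sequencing batch is named.

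Entries that share a gene name were summed. TPM were scaled by median ratios over the 13226 genes of at least 1 TPM in all 16 libraries, 0.1 TPM was added, and log2 values of 17317 genes (mean level 0.1 TPM or more) were fitted with limma 3.58.1 (empirical Bayes with a variance trend, R 4.3.3), the 8 libraries of a pair at a time and all 16 for the interaction. Levels in the text are TPM as deposited. Adjusted p-values are Benjamini-Hochberg values over all genes tested; the threshold was an unadjusted p under 0.05, 2-sided, as in the study. Permutation tests were exact over the 35 splits of 8 libraries. Intervals are 95% intervals of the fit. Python 3.11.15 and pandas 2.3.3 were used for the tables, and the fits were tested on simulated data.

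Values are given for each member called in any comparison, for Eif2ak2, Nlrc5, the receptors and the 3 members of highest level in each role, and for at most the 5 other pathway genes of smallest p per comparison with a mean of at least 1 TPM. Members, lists and rules were chosen with earlier results of these data known. Alternatives changed the pseudocount, filter, scaling, unit, variance trend, handling of repeated names and libraries fitted. The level of 1 marker gene is not reported here.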

Additional observations from a re-analysis of the deposited data

Results flagged for a closer look

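In 8 of the 156 groups of 4 libraries tested (39 genes in 4 groups), 1 library lay far from the other 3 by Dixon's criterion, which chance meets in about 1 of 20 groups. Irf3 was at 15.8 TPM in p16 KO RUN replicate 14, against 20.2 to 20.7 TPM in the other 3 libraries, and Trim25 was at 3.17 TPM in the same library, against 2.41 to 2.53 TPM. Irf7 was at 1.60 TPM in p16 KO RUN replicate 15, against 2.23 to 2.33 TPM. Ifit3 was at 7.20 TPM in p16 WT RUN replicate 10, against 4.80 to 5.09 TPM, and H2-D1 at 42.4 TPM in p16 WT RUN replicate 9, against 45.8 to 46.2 TPM. Among sedentary mice, Rsad2 was at 1.04 TPM in p16 WT CTL replicate 3, against 0.626 to 0.656 TPM, Gbp3 at 1.55 TPM in p16 WT CTL replicate 4, against 2.50 to 2.61 TPM, and Tap1 at 3.81 TPM in p16 KO CTL replicate 8, against 3.13 to 3.20 TPM.

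The effect of running differed between genotypes at an unadjusted p under 0.05 in limma's interaction test for Isg15 (0.99 on the log2 scale), Nlrc5 (1.09) and Tap1 (-0.46), each with an adjusted p of 0.797.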

How the results depend on the processing

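No paired analysis was possible because the replicate numbers run from 1 to 16 and never recur between groups. Leaving out 1 library at a time moved the number of the 38 genes called to 4 to 10 in Set A, 2 to 10 in Set B, 0 to 2 in Set C, 6 to 11 in Set D, 3 to 8 in Set E and 1 to 4 in the interaction. In Set B the count of 3 became 5 with no filter, 5 with a pseudocount of 1 TPM, 5 with no variance trend and 8 with all 16 libraries in one fit, and in Set C the count of 0 became 1, 2 and 1 with no filter, no variance trend and all 16 libraries. Without the 3 libraries of low nuclear RNA, an alternative chosen after seeing the data, it was 3 in Set A, 1 in Set B and 1 in the interaction. The cause was not tested, and the shares of all genes called in these fits are not given here. These counts therefore show how firm the calls were, and not whether the 38 genes moved more than other genes.

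Signs turned for values that were not called. The interaction of H2-D1 was 0.049 with TPM as deposited, 0.00092 with quantile normalization, 0.00081 with FPKM, 0.029 without the libraries of low nuclear RNA and -0.051 to 0.084 with 1 library left out. That of H2-K1 was 0.020 with TPM as deposited and -0.078 to 0.038 with 1 library left out. Irf7 in Set B was 0.070 without the libraries of low nuclear RNA, and Eif2ak2 in Set C ran from -0.069 to 0.28 with 1 library left out. Of the 55 called changes of named genes, none turned sign, but the call was lost in 129 of 504 fits with 1 library left out and in 50 of 581 fits under other settings: 17 without the libraries of low nuclear RNA, 11 with quantile normalization, 6 each with no filter, with TPM as deposited and with all 16 libraries in one fit, 3 with no variance trend and 1 with a pseudocount of 1 TPM. Depth limits Nlrc5, at a mean coverage of 0.523 per base, and Mx1, at 0.171.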
